A study of Homo sapiens with 4 samples.

Results

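The genes described here are 60 cyclins, cyclin-dependent kinases (CDKs), CDK inhibitors, mitotic kinases, spindle, cytokinesis, condensin and cohesin genes and the transcription regulators that act on them, named by symbol, out of 59769 genes in the deposited count table. All of their 534 listed transcripts were taken, of 227368 in the table. H1299 cells, a widely used lung carcinoma line of the non-small-cell type that was established from a human tumour, were sequenced after 48 h in 5 μM HgCl2 or in the solvent alone, 0.6% EtOH. Each group has 2 columns of counts, labelled as replicates 1 and 2. The treatment text of the labels gives 5 μM for all 4 samples, while the study's methods give no HgCl2 to the control, which is how the control is read here.

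Cyclins are proteins whose levels swing through the cell cycle and which switch on their partner CDKs. D and E cyclins act with CDK4, CDK6 and CDK2 to pass from G1 into S phase, where the pocket proteins RB1 and RBL1 hold back the E2F transcription factors until they are phosphorylated. Cyclin A, cyclin B and CDK1 drive G2 and mitosis, in which condensin compacts the chromosomes, cohesin holds sister chromatids together, the anaphase-promoting complex (APC/C) marks cyclin B for destruction, and the cytokinesis proteins cut the daughter cells apart. Many G2/M genes are transcribed together near the end of the cycle, through a short promoter element called the cell cycle genes homology region (CHR), bound by the DREAM and MuvB-FOXM1 complexes, and through CCAAT boxes bound by NF-Y. Tumour cell lines that divide quickly usually hold much of this RNA.

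The total counts were 5051958 and 5053120 for EtOH and 4722772 and 4720978 for HgCl2, and 0.938% of the EtOH counts and 0.866% of the HgCl2 counts fell on the 60 genes. The 2 columns of a group differed by less than the counting noise (variance 0.505 times that of independent counts for EtOH and 0.516 times for HgCl2, against 31.7 between EtOH replicate 1 and HgCl2 replicate 1), so they were counted as 1 sample, although the study describes its replicates as independent. Every difference below is therefore between 1 sample and 1 sample, has no replicate check and no p-value, and its interval covers counting error only. Reads were counted per transcript, and the counts rest largely on bases that a single listed transcript covers, called its own bases here. A value is thus that of a transcript and not of a gene, and a transcript at 0 is not shown to be absent. CCNA2, which encodes cyclin A2, has 2494 own bases and 0 counts in all 4 columns. Of the 408 transcripts of these genes at 0, 358 have under 150 own bases in a row. In H1299, VIM had 620, 628, 501 and 511 counts and KRT18 23, 24, 18 and 31 (EtOH 1, EtOH 2, HgCl2 1, HgCl2 2), KRT8 had 53, 58, 4 and 4, and the epithelial markers EPCAM and CDH1 were at 0. The other mesenchymal markers had few counts, with 13, 13, 1 and 2 on CDH2, 9, 13, 15 and 17 on FN1 and 2, 3, 3 and 2 on ZEB1. Of the lung lineage markers, NKX2-1 had 2, 0, 0 and 0 counts, and SFTPC and SFTPB were at 0. The 4 leukocyte markers were at 0, endothelial PECAM1 lay between 1 and 5 counts, and fibroblast COL1A1 lay between 3 and 18. In RNA of whole cultures, fewer cells in a phase of the cycle and less RNA per cell cannot be told apart.

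Counts were found on 126 of the 534 transcripts, from 51 of the 60 genes, and 57 transcripts of 36 genes passed the filter of a mean FPKM above 1 in at least 1 group. A log2 fold change is that of HgCl2 against EtOH throughout, positive when higher in HgCl2, and a difference is counted from 2-fold up. Of the 57 transcripts, 6 were at least 2-fold higher in HgCl2 (10.5%, against 19.2% of all 17547 tested transcripts) and 21 at least 2-fold lower (36.8%, against 34.1%). Their median log2 fold change was -0.61, beside -0.21 over all tested transcripts. These shares rest on thinly counted transcripts, since 21 of the 27 had a mean under 30 counts and 13 had 3 counts or fewer in a group, and a transcript that passes the filter through 1 group alone had to differ. Under 30 counts, 18 of 31 transcripts of these genes were at least 2-fold lower and 3 higher (58.1% and 9.68%, against 50.9% and 21.7% of all tested transcripts of that depth). For that reason the 26 transcripts that averaged 30 counts or more over both groups, called well counted, carry most of what follows. They come from 21 genes.

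Among the 26 well-counted transcripts, 3 were at least 2-fold higher (11.5%, against 15.5% of the 7107 well-counted transcripts of the whole table) and 3 at least 2-fold lower (11.5%, against 9.53%). The 3 higher ones belong to RB1, FOXM1 and RAD21, and the 3 lower ones to MKI67, NCAPD2 and CCNG2. With 30 to under 200 counts, 3 of 12 were higher and 3 lower (25.0% each, against 22.2% and 14.2%), and with 200 counts or more 0 of 14 reached 2-fold in either direction (background 4.65% higher and 2.03% lower). The median log2 fold change of the 26 was -0.23. Because the median of all well-counted transcripts was 0.21, the 26 lay 0.44 lower on the log2 scale than transcripts of like depth. Of the 26, 18 lay below 0.21, 16 with the whole interval below it, and 5 had the whole interval above it. The matching shares of whole intervals over all well-counted transcripts were not counted, so the 16 and the 5 have no background beside them.

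**Figure D1:**
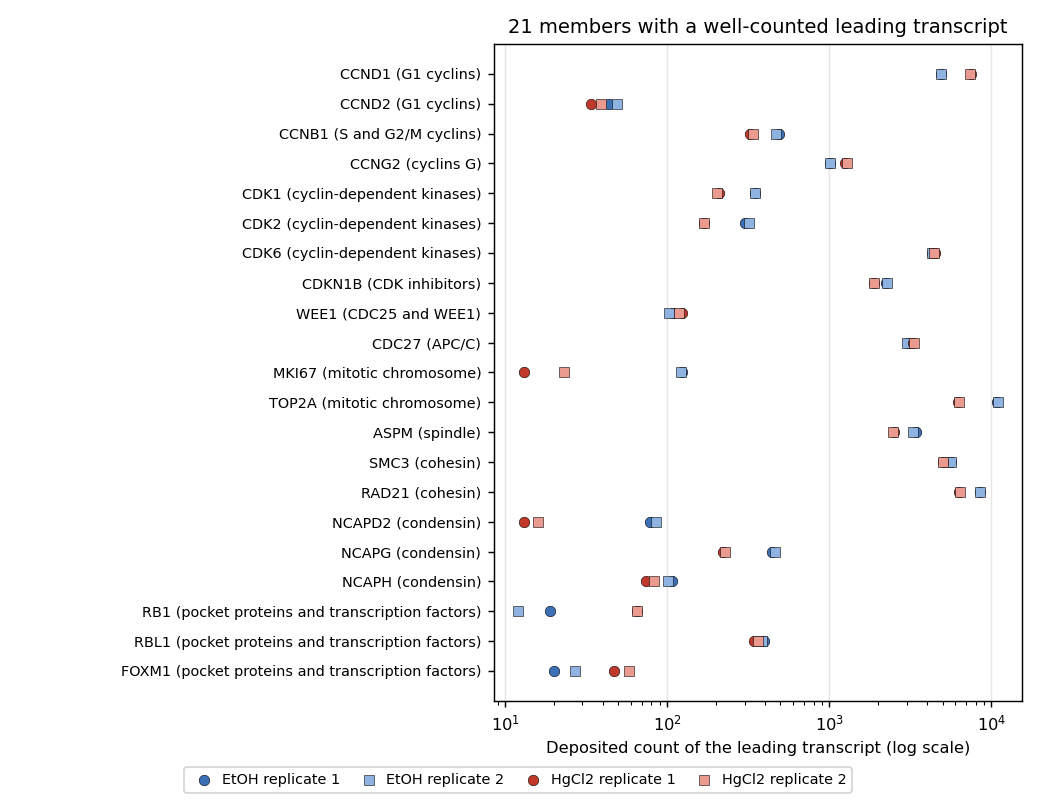
Deposited counts (x axis, log scale) of the leading transcript, the tested one with the most counts, for the 21 genes in which it has a mean of at least 30 counts, with 1 symbol per column. The 2 columns of a group lie close together, the HgCl2 symbols of MKI67 (13 and 23) and NCAPD2 (13 and 16) lie far to the left of the EtOH symbols, and those of CCND1 and RB1 lie to the right.

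To place the genes beside the sequence elements named above, promoter windows of 300 bases (250 before and 50 after the start, RefSeq, GRCh38.p14) were searched on both strands for CCAAT (NF-Y), TTTGAA or TTCGAA (CHR) and TTTCGCGC, TTTGGCGC, TTTCCCGC or TTTGCCGC (E2F). Windows were used where the RefSeq start lay within 500 bases of the canonical GENCODE start, which left 42 of the 60 genes and 16072 windows in all. CCAAT was in 69.0% of the 42 windows and in 36.9% of all windows. A CHR match was in 57.1% against 14.02%, and an E2F match in 16.7% against 4.36%. Both CCAAT and a CHR match were in 42.9% of the 42 windows against 5.81% of all, and at least 2 CCAAT in 52.4% against 12.8%. The genes were chosen by name for their place in the cycle, so these shares describe that choice.

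The windows of 5 genes are printed here and do not stand for all 42. MKI67 has the lowest and CCNG2 the highest log2 fold change among the genes with a window and a well-counted leading transcript. NCAPD2, TOP2A and CDK1 were added after their values were seen, as further genes with a log2 fold change below 0. All 3 hold both CCAAT and a CHR match, which other lowered genes do not. NCAPG, at -0.87, has a CHR match and no CCAAT. CCNB1 (-0.39) and NCAPH (-0.26) have CCAAT and no CHR match, and SMC3, at -0.02, has a CHR match. Matches are in capitals and read 5′ to 3′ on the strand of the gene, so that ATTGG is CCAAT on the other strand and TTCAAA is TTTGAA on the other strand. The windows lie at chr10:128126374-128126673 (minus strand, MKI67), chr4:77156957-77157256 (plus, CCNG2), chr12:6493852-6494151 (plus, NCAPD2), chr17:40417847-40418146 (minus, TOP2A) and chr10:60778081-60778380 (plus, CDK1).
MKI67: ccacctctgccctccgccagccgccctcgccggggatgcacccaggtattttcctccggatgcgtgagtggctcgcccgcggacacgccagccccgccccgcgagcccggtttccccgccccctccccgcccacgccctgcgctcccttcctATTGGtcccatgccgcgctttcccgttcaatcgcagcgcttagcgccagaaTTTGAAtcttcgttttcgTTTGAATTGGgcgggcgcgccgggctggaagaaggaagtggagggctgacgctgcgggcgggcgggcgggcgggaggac
CCNG2: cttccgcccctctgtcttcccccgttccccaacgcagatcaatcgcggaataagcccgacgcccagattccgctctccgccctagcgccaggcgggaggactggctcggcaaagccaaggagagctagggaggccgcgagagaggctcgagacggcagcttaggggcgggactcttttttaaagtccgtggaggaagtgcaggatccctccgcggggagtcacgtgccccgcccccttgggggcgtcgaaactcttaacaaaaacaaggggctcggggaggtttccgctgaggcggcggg
NCAPD2: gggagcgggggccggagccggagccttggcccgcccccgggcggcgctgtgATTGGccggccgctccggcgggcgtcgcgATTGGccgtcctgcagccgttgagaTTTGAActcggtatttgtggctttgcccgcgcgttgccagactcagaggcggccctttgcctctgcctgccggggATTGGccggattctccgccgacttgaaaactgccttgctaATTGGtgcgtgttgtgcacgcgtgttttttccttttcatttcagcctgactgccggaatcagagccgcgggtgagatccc
TOP2A: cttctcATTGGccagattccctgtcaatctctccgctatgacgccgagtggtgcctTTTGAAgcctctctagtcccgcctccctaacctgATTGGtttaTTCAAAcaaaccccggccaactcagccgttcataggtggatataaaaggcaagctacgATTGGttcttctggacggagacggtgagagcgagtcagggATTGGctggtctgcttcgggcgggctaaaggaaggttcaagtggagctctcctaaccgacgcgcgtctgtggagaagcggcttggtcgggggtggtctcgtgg
CDK1: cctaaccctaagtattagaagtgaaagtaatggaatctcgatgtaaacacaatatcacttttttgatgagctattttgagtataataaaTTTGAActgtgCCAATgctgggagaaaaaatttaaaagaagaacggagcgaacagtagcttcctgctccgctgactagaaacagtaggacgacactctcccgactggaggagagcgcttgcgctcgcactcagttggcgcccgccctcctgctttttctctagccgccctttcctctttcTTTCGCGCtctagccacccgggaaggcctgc
In MKI67 the second TTTGAA begins 29 bases before the start and runs straight into an ATTGG that begins at 24 bases before it, with which it shares its last base. TOP2A and NCAPD2 hold 4 ATTGG each, and CDK1 holds TTTGAA 161 bases before its start, CCAAT 150 bases before it and TTTCGCGC at base 20 after it. The CCNG2 window has no match to any of these letters. Over the 14 genes with a window and a well-counted leading transcript, the 7 with a CHR match (ASPM, CDK1, MKI67, NCAPD2, NCAPG, SMC3 and TOP2A) had log2 fold changes from -2.62 to -0.02 with a median of -0.65. The 7 without one (CCNB1, CCNG2, CDC27, CDK6, CDKN1B, NCAPH and RBL1) ranged from -0.39 to 0.47 with a median of -0.01, so the ranges overlap. Other genes with a well-counted leading transcript had no usable window and are in neither set. They are RB1 (log2 fold change 2.20), FOXM1 (1.30), CCND1 (0.75), WEE1 (0.35), CCND2 (-0.21), RAD21 (-0.28) and CDK2 (-0.73). This split was chosen after the values were seen and covers only part of the genes, and a match in a window is not evidence of binding.

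Of the G1 cyclins, CCND1 was higher in HgCl2, by less than 2-fold, and the others that could be measured showed no clear difference. CCND1 (ENST00000227507, chr11:69641156-69654474, plus strand) encodes cyclin D1, the partner of CDK4 and CDK6. It had 4902 and 4868 counts in EtOH and 7444 and 7428 in HgCl2. The log2 fold change was 0.75 (95% counting interval 0.70 to 0.80), or 0.54 above the median of well-counted transcripts. Of its 2579 own bases, 2570 are 3′ UTR, and its other 5 listed transcripts were at 0. Where along the transcript the reads fell was not tested. CCND2, encoding cyclin D2 (ENST00000261254), had 44, 49, 34 and 39 counts, with a log2 fold change of -0.21 and an interval of -0.86 to 0.45 that includes 0. CCNE2, encoding cyclin E2, which acts with CDK2, had 24 and 15 counts in EtOH and 15 and 16 in HgCl2 on its tested transcript (log2 fold change -0.19, interval -1.22 to 0.84). Its sign turned under 3 of the 12 alternative settings. CCNE1, encoding cyclin E1, had 1 count in each EtOH column and 0 in HgCl2, and CCND3, encoding cyclin D3, was at 0 throughout.

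The cyclins of S phase and G2/M were thinly covered, and the single well-counted coding transcript was lower in HgCl2, by less than 2-fold. CCNB1 (ENST00000256442, chr5:69167150-69178245, plus strand) encodes cyclin B1, the partner of CDK1 at entry into mitosis. It had 492 and 467 counts in EtOH and 323 and 340 in HgCl2, a log2 fold change of -0.39 (-0.59 to -0.18), which is 0.60 below the median of well-counted transcripts. All of its 545 own bases are 3′ UTR. A transcript of CCNB1 that retains an intron (ENST00000513102) went the other way in its counts, with 29, 23, 37 and 37 and a log2 fold change of 0.65, but the interval of -0.11 to 1.43 includes 0. CCNB2, encoding cyclin B2, had 17, 15, 7 and 4 counts on its tested transcript (log2 fold change -1.38, interval -2.91 to 0.16), and CCNF, which encodes a substrate receptor of an SCF ubiquitin ligase, was at 0 in all columns, as was CCNA2.

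The 2 cyclins of the G type, which do not drive the cycle and are induced when cells slow down or are stressed, were split between and within genes. CCNG2 had 1007 and 1009 counts in EtOH and 1254 and 1281 in HgCl2 on its canonical transcript (ENST00000316355, log2 fold change 0.47, interval 0.35 to 0.60). A second coding transcript of CCNG2 (ENST00000509972, 531 own bases, 530 of them 3′ UTR) had 51, 62, 11 and 10 counts and a log2 fold change of -2.27 (-3.31 to -1.28). The intervals of these 2 transcripts lie on opposite sides of 0. CCNG1, encoding cyclin G1, was counted on a transcript with no defined coding sequence, with 9, 14, 1 and 3 counts (log2 fold change -2.31, interval -5.64 to -0.27).

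Of the kinases that the cyclins bind, CDK2 and the 2 main transcripts of CDK1 had fewer counts in HgCl2, by less than 2-fold. CDK6 stayed at the level of the bulk of transcripts. CDK2 (ENST00000266970, chr12:55966830-55972789, plus strand), the partner of cyclins E and A, had 300, 319, 169 and 169 counts and a log2 fold change of -0.73 (-1.01 to -0.46). CDK1, the mitotic kinase, was counted mainly on 2 transcripts that retain introns. The first (ENST00000475504, chr10:60778365-60787069, 1282 own bases) had 346, 349, 210 and 203 counts (log2 fold change -0.61, interval -0.86 to -0.35), and the other (ENST00000487784) had 201, 200, 156 and 138 (-0.30, interval -0.62 to 0.01). The interval of this second CDK1 transcript includes 0. The summed counts of all CDK1 transcripts gave a log2 ratio of -0.50 (-0.70 to -0.30). CDK6 (ENST00000265734), the G1 kinase that binds D cyclins, had 4327, 4321, 4488 and 4441 counts and a log2 fold change of 0.19 (0.13 to 0.25), next to the median of 0.21. CDK4, the other such kinase, was counted on a retained-intron transcript with 3, 4, 21 and 18 counts and a log2 fold change of 2.58 (0.89 to 4.47). All 685 bases of that transcript are shared with a transcript of another gene, so its counts cannot be assigned to CDK4.

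Among the CDK inhibitors, CDKN1B, encoding p27, which holds back cyclin E-CDK2, had 2224, 2261, 1885 and 1877 counts on its canonical transcript. The log2 fold change was -0.11 (-0.20 to -0.02), 0.32 below the median of well-counted transcripts, and its sign turned under 3 of the 12 settings. A longer coding transcript of CDKN1B with 2081 own bases of 3′ UTR (ENST00000614874) had 37, 37, 9 and 11 counts, with a log2 fold change of -1.73 (-2.92 to -0.71). CDKN3, a phosphatase that acts on CDKs, had 7, 13, 1 and 1 counts (log2 fold change -3.04, interval -8.62 to -0.37). CDKN2C, encoding p18, an inhibitor of CDK4 and CDK6, summed to 5, 4, 1 and 0 counts, and CDKN1C, encoding p57, was at 0.

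The enzymes that set the phosphorylation of CDK1 were little covered. WEE1, the kinase that inhibits CDK1, was counted on a retained-intron transcript (ENST00000524549) with 108, 102, 124 and 118 counts, a log2 fold change of 0.35 whose interval of -0.04 to 0.74 includes both 0 and the median of well-counted transcripts. Of the CDC25 phosphatases, which remove that inhibition, CDC25C had 5, 3, 0 and 0 counts on a retained-intron transcript, and the upper end of its counting interval, 0.74, lies above 0, so no difference was detectable at this depth. CDC25B summed to 1, 2, 0 and 0 counts and CDC25A was at 0. CDC27, a subunit of the APC/C, had 3058, 3037, 3265 and 3322 counts (ENST00000066544, log2 fold change 0.26, interval 0.18 to 0.33), and it lay close to the median of well-counted transcripts. CDC20, which activates the APC/C, summed to 3, 2, 0 and 0 counts.

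Mitotic chromosome genes held the lowest well-counted value of the 60 genes. MKI67 (ENST00000368654, chr10:128096659-128126423, minus strand) encodes Ki-67, the proliferation marker that coats mitotic chromosomes. It had 123 and 122 counts in EtOH and 13 and 23 in HgCl2. The log2 fold change was -2.62 (-3.43 to -1.91). The transcript has 770 own bases, 582 of them coding, out of 12716 bases, and the other 4 MKI67 transcripts had no counts. Its promoter window, printed above, holds 2 ATTGG and 2 TTTGAA. TOP2A (ENST00000423485, chr17:40388525-40417896, minus strand), the DNA topoisomerase that untangles sister chromatids, was the most counted of all. It had 10802, 11059, 6258 and 6314 counts and a log2 fold change of -0.65 (-0.70 to -0.61), under 2-fold, over 3980 own bases of which 3217 are coding. A retained-intron transcript of TOP2A (ENST00000578412) had 19, 16, 27 and 27 counts (log2 fold change 0.76, interval -0.19 to 1.68).

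Mitotic kinases and the chromosomal passenger complex had few counts. PLK4, the kinase that starts centriole duplication, was counted on 2 retained-intron transcripts that lay on opposite sides of 0, the first with 24, 22, 35 and 36 counts (ENST00000510192, log2 fold change 0.77, interval -0.0046 to 1.61) and the second with 32, 37, 18 and 16 (ENST00000507454, -0.87, interval -1.83 to -0.02). BIRC5, encoding survivin, the passenger complex subunit, had 7 and 9 counts in EtOH and 0 in both HgCl2 columns on one transcript (upper end of the interval -0.63). On another it had 5, 7, 0 and 0 (upper end -0.09). With HgCl2 set to a floor of 3 counts, the 2 were 2.41-fold and 1.81-fold lower, and the intervals allow smaller differences. Both passed the filter through EtOH alone. AURKB, the kinase of that complex, summed to 5, 4, 0 and 0 counts. AURKA, a kinase of the spindle poles, had 1, 1, 0 and 0, and PLK1, a kinase needed throughout mitosis, had 1, 1, 1 and 0. INCENP, the scaffold of the passenger complex, was at 0. With so few counts no difference in AURKA, PLK1 or INCENP was detectable at this depth.

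Of the spindle genes, ASPM (ENST00000367409), which focuses the spindle poles, had 3407, 3296, 2515 and 2486 counts over 4755 own coding bases. Its log2 fold change was -0.28 (-0.35 to -0.20), 0.49 below the median of well-counted transcripts. DLGAP5, which stabilises spindle microtubules at the kinetochores, summed to 9, 8, 1 and 1 counts, CKAP5, a microtubule polymerase, to 4, 6, 2 and 1, and NUSAP1, which bundles microtubules near chromosomes, to 1, 1, 0 and 0. TPX2 and HMMR, both spindle assembly factors, were at 0.

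The 3 cytokinesis genes with a tested transcript all had fewer counts in HgCl2, and none was well counted. In the edgeR fit all 3 were at least 2-fold lower, as were 50.9% of all tested transcripts under 30 counts. Only ECT2 stayed past 2-fold in every setting that tested it. ANLN was -0.48 and -0.87 on the log2(FPKM + 1) and log2(FPKM + 0.1) scales and -0.99 with no filter beyond 1 count. RACGAP1 was -0.27 with low groups set to 3 counts. ANLN, encoding anillin, the scaffold of the contractile ring, had 39, 34, 14 and 16 counts (ENST00000265748, log2 fold change -1.13, interval -2.13 to -0.26). ECT2, the exchange factor that activates RHOA at the division plane, had 14, 10, 2 and 2 counts on a retained-intron transcript (-2.37, interval -5.64 to -0.27). RACGAP1, which brings ECT2 to the midzone, had 6, 2, 0 and 1 (-2.60, interval -7.48 to 1.48). The intervals of ANLN and ECT2 lie below 0, that of RACGAP1 does not. PRC1, the midzone microtubule bundler, summed to 0, 2, 0 and 1 counts.

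The 3 condensin subunits with a well-counted transcript all had fewer counts in HgCl2. NCAPD2 (ENST00000315579, chr12:6494102-6531955, plus strand), a HEAT-repeat subunit of condensin I, had 78 and 85 counts in EtOH and 13 and 16 in HgCl2, a log2 fold change of -2.34 (-3.21 to -1.50). Its 479 own bases are all 3′ UTR, and its other 2 tested transcripts had 8 and 8 counts in EtOH and 2 or 3 in HgCl2. NCAPG (ENST00000251496, chr4:17810979-17844865, plus strand), the other HEAT-repeat subunit, had 446, 463, 222 and 227 counts (-0.87, interval -1.11 to -0.64), and 1634 of its 4587 bases are shared with a transcript of another gene. NCAPH, the kleisin that closes the ring of condensin I, had 107, 101, 74 and 83 counts, with a log2 fold change of -0.26 and an interval of -0.69 to 0.18. All 3 lay below the median of well-counted transcripts with their whole intervals, though the interval of NCAPH includes 0.

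The ATPase subunits of condensin were thinly counted and did not share a sign. SMC2 had 7, 11, 23 and 21 counts on a coding transcript whose 275 own bases are 5′ UTR (log2 fold change 1.42, interval 0.26 to 2.74). SMC4 was counted on 5 tested transcripts, all with retained introns. The leading one (ENST00000462668) had 32, 38, 13 and 12 counts (-1.33, interval -2.33 to -0.33), and 1 of the 5 was higher, with 5, 7, 12 and 11 counts (1.07, interval -0.38 to 2.84).

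In cohesin, SMC3 (ENST00000361804, chr10:110567695-110606048, plus strand), one of the ATPases of the ring, had 5638, 5659, 5059 and 5041 counts and a log2 fold change of -0.02 (-0.07 to 0.04), 0.23 below the median of well-counted transcripts. Its sign turned under 4 of the 12 settings. RAD21, the kleisin cut by separase at anaphase, had 8554, 8563, 6341 and 6386 counts on its canonical transcript (ENST00000297338, log2 fold change -0.28, interval -0.33 to -0.24), which has no own bases. A second coding RAD21 transcript, with 104 own bases of 5′ UTR (ENST00000517749), had 48 and 50 counts in EtOH and 148 and 136 in HgCl2, a log2 fold change of 1.68 (1.20 to 2.18). Another, with a retained intron (ENST00000523986), had 66, 82, 49 and 57 counts and -0.34 (-0.88 to 0.19). The RAD21 transcripts thus lay on both sides of 0, and the sum over the gene gave -0.26 (-0.31 to -0.21). Other cohesin subunits had few counts, with 7, 9, 2 and 2 on STAG1 (-1.80, interval -5.13 to 0.47), 9, 4, 2 and 7 on STAG2 (-0.38, interval -2.34 to 1.53, but 0.30 without EtOH replicate 1 and 0.25 without HgCl2 replicate 1, and -1.50 without HgCl2 replicate 2) and a sum of 2, 3, 0 and 0 on SMC1A.

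The transcription regulators above the cyclins held the highest well-counted value. RB1 (ENST00000267163, chr13:48303751-48481890, plus strand), the retinoblastoma pocket protein, had 19 and 12 counts in EtOH and 65 in each HgCl2 column, a log2 fold change of 2.20 (1.36 to 3.05). Its 162 own bases are 3′ UTR, and the sum over its transcripts was 28, 20, 67 and 65, a log2 ratio of 1.60 (0.91 to 2.34). RBL1, the pocket protein p107, had 397, 385, 341 and 364 counts and a log2 fold change of -0.01 (-0.22 to 0.21), whose sign turned under 6 of the 12 settings. FOXM1, the forkhead factor that activates G2/M genes, was counted on a retained-intron transcript (ENST00000366362) with 20, 27, 47 and 58 counts and 1.30 (0.57 to 2.05), and on another (ENST00000545049) with 8, 7, 1 and 1 (-2.63, interval -8.33 to 0.04). A coding FOXM1 transcript (ENST00000342628) had 11, 10, 11 and 10 counts and did not pass the filter. The sum over the FOXM1 transcripts gave a log2 ratio of 0.77 (0.17 to 1.35), under 2-fold. The median of all well-counted retained-intron transcripts was 0.59. E2F1 had 0, 2, 2 and 3 counts over 2690 own bases, E2F3 had 1 in every column, E2F7, a repressor of the family, summed to 10, 8, 3 and 2, and MYBL2, which works with MuvB in S phase, was at 0.

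**Figure D2:**
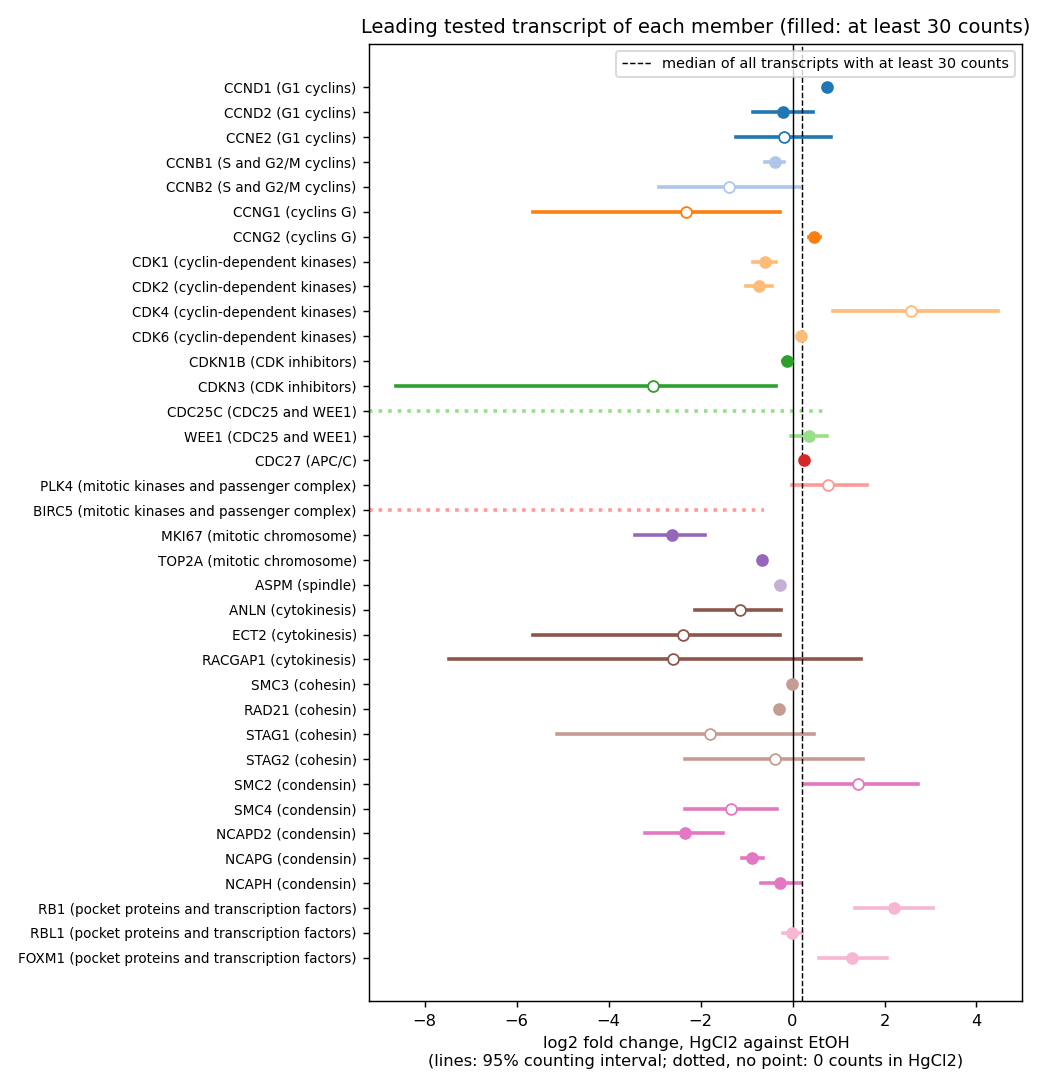
Log2 fold change of HgCl2 against EtOH (x axis) for the leading tested transcript of the 36 genes that have one, coloured by role. Filled points have a mean of at least 30 counts, lines are 95% counting intervals, dotted lines without a point run from the left edge to the upper end of the interval for transcripts at 0 in HgCl2, and the dashed line is the median of all well-counted transcripts (0.21). CCND1, RB1 and FOXM1 lie right of the dashed line, while TOP2A, NCAPG, NCAPD2 and MKI67 lie left of 0.

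Transcripts of the same gene did not always share a direction. Of the 13 genes with at least 2 tested transcripts, 9 had log2 fold changes of both signs (CCNB1, CCNG2, CDKN1B, CDC27, PLK4, TOP2A, RAD21, SMC4 and FOXM1). The share over all genes of the table was not counted, and several of the opposing values have intervals that include 0. Among these 9 genes only CCNG2 and RAD21 had 2 transcripts with intervals wholly on opposite sides of 0 that were both well counted. The 6 well-counted transcripts with retained introns had a median of 0.02, beside 0.59 over all 1059 such transcripts in the table, and the 20 well-counted coding ones had -0.23, beside 0.14 over 4158. Both kinds thus lay below their own background. With all transcripts of a gene summed, 23 genes had at least 30 counts, of which RB1 was at least 2-fold higher and MKI67 and NCAPD2 at least 2-fold lower. Of all 6435 genes with such a sum, 11.0% were higher and 9.71% lower.

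**Figure D3:**
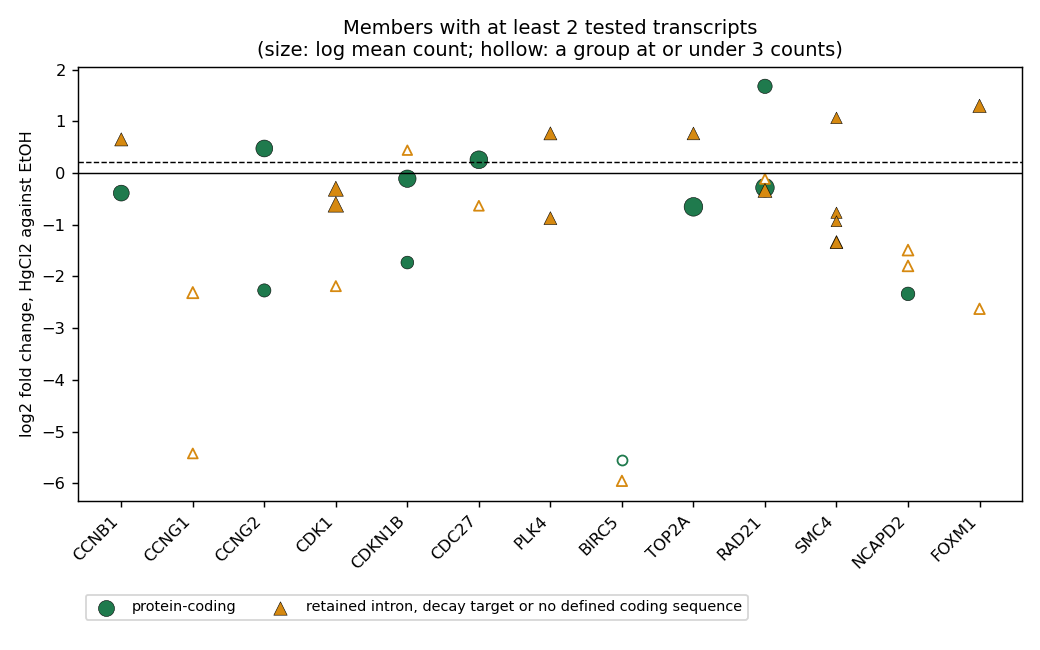
Log2 fold change of HgCl2 against EtOH (y axis) of every tested transcript of the 13 genes with at least 2, with circles for coding transcripts and triangles for the others. Hollow symbols have 3 counts or fewer in a group, so that their place depends on the fit, and the dashed line is the median of all well-counted transcripts. In CCNG2 and RAD21 2 coding transcripts lie on opposite sides of 0.

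Counts were lost from the table in HgCl2 more often than gained. The number of all transcripts with a count was 33148 and 33106 for EtOH and 25432 and 25531 for HgCl2. Of the 122 transcripts of the 60 genes with a count in EtOH, 43 (35.2%) had none in HgCl2, beside 32.2% of all transcripts. Of the 83 with a count in HgCl2, 4 (4.82%) had none in EtOH, beside 13.5% of all. The genes counted in EtOH and at 0 in HgCl2 were CCNE1, CDC25B, CDC25C, CDC20, AURKA, AURKB, BIRC5, NUSAP1 and SMC1A, 9 genes with 16 counts or fewer in either EtOH column, and 0 genes were the other way round. They are 17.6% of the 51 genes counted in EtOH, beside 24.8% of all genes counted in EtOH, and 8.12% of all genes counted in HgCl2 were at 0 in EtOH. The part of the lower number of counted transcripts in these values was not tested.

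**Figure D4:**
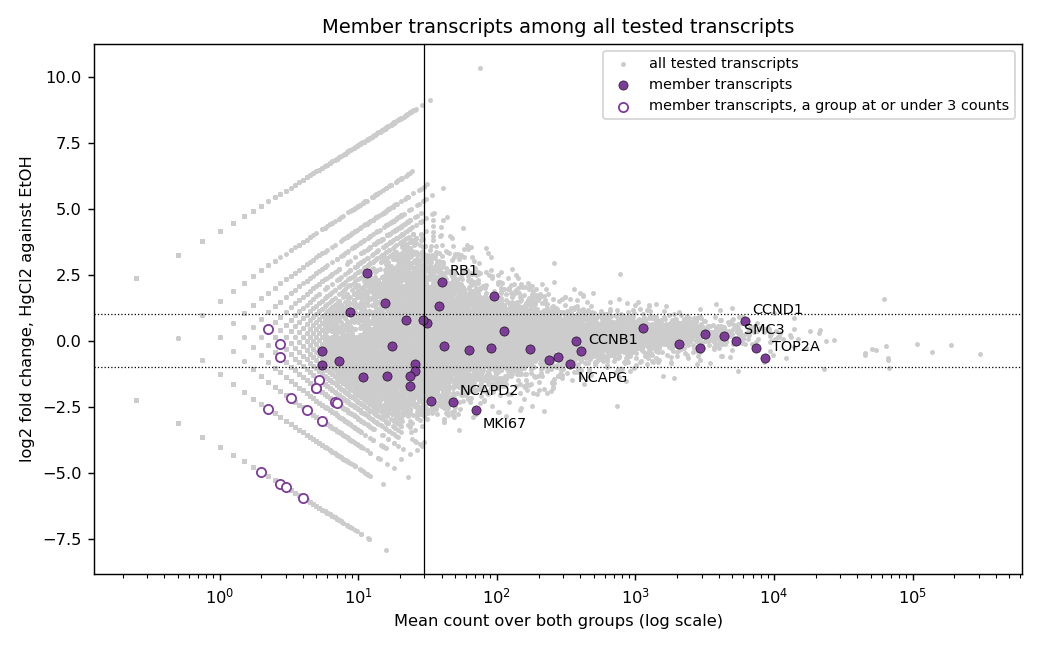
Log2 fold change of HgCl2 against EtOH (y axis) against the mean count over both groups (x axis, log scale) for all 17547 tested transcripts (grey) and the 57 of the 60 genes (purple, hollow with 3 counts or fewer in a group). The vertical line marks 30 counts and the dotted lines 2-fold. To the right of the line most purple points lie below the middle of the grey cloud, with RB1 well above it and NCAPD2 and MKI67 well below it.

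A further list of 111 cell cycle genes, chosen like the 60 with earlier results of these data known and covering other cyclins and CDKs, APC/C subunits, cohesin loaders, septins, DREAM subunits and mitotic regulators, served as neighbours of the 60. Of its 152 tested transcripts, 32 were at least 2-fold higher (21.1%) and 46 at least 2-fold lower (30.3%), close to the 19.2% and 34.1% of all tested transcripts. Its 64 well-counted transcripts, from 49 genes, had 11 higher and 5 lower (17.2% and 7.81%, beside 15.5% and 9.53%) and a median of 0.12, which is 0.09 below that of all well-counted transcripts. The genes whose leading transcript was well counted and past 2-fold numbered 7. Lower in HgCl2 were 3 coding transcripts. CDCA5, encoding sororin, which protects cohesin on replicated chromatids, had 412, 403, 152 and 137 counts (log2 fold change -1.35, interval -1.63 to -1.07). ESCO2, which acetylates SMC3 in S phase, had 251, 245, 100 and 114 (-1.07, interval -1.41 to -0.74). HASPIN, the kinase that recruits the passenger complex to centromeres, had 104, 88, 18 and 17 (-2.30, interval -3.09 to -1.54). All 3 intervals lie below 0. Higher in HgCl2 were 4 transcripts, each with a retained intron. They belong to CCNL1, a cyclin of splicing kinases (242, 234, 776 and 740 counts, log2 fold change 1.81), PLK2, a stress-induced Polo kinase (17, 16, 91 and 70, 2.42), ANAPC4, an APC/C subunit (53, 47, 100 and 96, 1.11), and FBXO5, the APC/C inhibitor EMI1 (33, 37, 61 and 66, just past 2-fold with an interval of 0.40 to 1.65).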

How the data were processed

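Poly-A RNA of H1299 cells, 2 columns for EtOH and 2 for HgCl2, was sequenced in pairs. The authors used Trim Galore for trimming, aligned the reads with STAR 2.5.4b to GRCh38 (Ensembl 98) and deposited whole-number counts per transcript from Rsubread, whose options, strand use included, are not given in the sources used here. The authors also deposited FPKM values, made from these counts with DESeq2 1.26.0 and scaled by median ratios. One count is worth 1.25 times more FPKM in HgCl2 than in EtOH.

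The 60 genes, the further list and the motifs were chosen with earlier results of these data known. Symbols, transcript classes and own bases come from GENCODE 44, a later release, in which 223558 of 227368 identifiers (98.3%) were found. The 17547 transcripts whose mean FPKM exceeded 1 in either group were fitted with edgeR 4.0.16 (glmQLFit, TMM, R 4.3.3), with treatment as the only term, as the methods of the study name edgeR and its results a log2 fold change of 1, although those results name DESeq2. The columns of a group were treated as 1 sample (see the comparison in the report), so the p-values of the fit are not used. Fold changes are edgeR's, on the log2 scale, with exact Clopper-Pearson 95% intervals from the mean counts. A group at 0 is given by its counts and the upper end of the interval, for BIRC5 also against a floor of 3 counts. Other groups with a mean of 3 counts or fewer keep edgeR's value, which depends on the fit. With such groups set to 3 counts, CDKN3 was -1.59, CCNG1 -1.80, ECT2 -1.86 and RACGAP1 -0.27. Named were all 60 genes by their tested transcript with the highest mean count, further tested transcripts that averaged 30 counts or more and were past 2-fold, and genes of the further list whose leading transcript met both limits. Other named transcripts were chosen after their values were seen. The fit was tested on simulated data. Tables and figures were made with Python 3.11.15, pandas 2.3.3, scipy 1.17.1 and matplotlib 3.10.9.

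Alternatives used DESeq2 1.42.0, total count scaling, limma 3.58.1 on log2(FPKM + 1) and log2(FPKM + 0.1), other filters, a replicate block, bounds for low groups, and each column left out in turn. Promoter windows come from RefSeq.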

Additional observations from a re-analysis of the deposited data

How the results depend on the processing

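The counts of transcripts past 2-fold depended most on the filter, for these genes as for all transcripts. Where every column had to hold 10 counts or more, 33 transcripts of the 60 genes were tested. Of these, 3 were higher (9.09%, against 11.0% of all transcripts) and 7 lower (21.2%, against 12.6%). With no filter beyond 1 count 126 were tested, of which 12 were higher (9.52%, against 20.7% of all). The lower ones then numbered 68 (54.0%, against 47.6%), beside 6 higher and 21 lower of 57 in the main fit. On the log2(FPKM + 1) scale 4 were higher and 14 lower, with low groups set to 3 counts 16 were lower, and with 1 column left out 20 to 24 were lower. Among the well-counted transcripts, 3 were higher and 3 lower under each of the 12 settings, except that 4 were lower with that stricter filter, where NCAPG reached -1.05, and their median lay between 0.36 and 0.45 below that of all well-counted transcripts, the smaller distance coming without EtOH replicate 2 or without HgCl2 replicate 1. The median of well-counted transcripts was 0.21 with edgeR, 0.25 with DESeq2, 0.16 with total counts, 0.35 and 0.38 on the 2 FPKM scales, 0.03 with the stricter filter and 0.35 without one. On the log2(FPKM + 1) scale, which shrinks differences of low values, MKI67 was -1.06, NCAPD2 -1.28 and RB1 1.37, in place of -2.62, -2.34 and 2.20. Of 23 named well-counted transcripts, 20 kept 1 sign under every setting, and CDKN1B, SMC3 and RBL1 did not. Of 445 values of single transcripts, 41 moved beyond their interval and 0 reversed a call. With the replicate block, 6 higher, 21 lower and the distance of -0.44 were as without it. Because the 2 columns of a group count as 1 sample, neither the block nor a left-out column is a check by an independent sample. Same-numbered columns share only a number, as their deviations correlated at 0.0074. Depth limits the rest, since 15 genes with a tested transcript had none with 30 counts and 24 genes had none tested.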
